A study of Mus musculus with 2 samples.

Results

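The clustered protocadherin genes are the Pcdha, Pcdhb and Pcdhg genes, which lie side by side on mouse chromosome 18 and encode cell-surface adhesion proteins of the cadherin superfamily. Members were taken by name, as every gene with a Pcdha, Pcdhb, Pcdhga, Pcdhgb or Pcdhgc symbol and the type protein_coding in the annotation. This gave 57 genes of 55536 annotated genes, or of 22028 protein-coding genes, in the deposited tables. They comprised 14 alpha genes, 22 beta genes and 21 gamma genes, with 87 annotated transcripts in all. A further matching gene, Pcdhgb8, is typed as a polymorphic pseudogene and was not a member. The tables give the symbol Pcdha11 to a pair of gene entries. The entry ENSMUSG00000007440.10 is called Pcdha10 here, the RefSeq symbol of its transcript, and ENSMUSG00000102206.5 keeps the name Pcdha11.

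The RNA came from the hippocampus, termed a layer of hippocampus in the labels, of males of the strain B6CASTF1/J aged 14 days. B6CASTF1/J mice are hybrids of the C57BL/6J and CAST/EiJ strains. There were 2 libraries of total RNA with ERCC spike-ins, synthetic RNAs of known amount, and both belonged to 1 group, biological replicates 2 and 1. Each label lists 3 males of its own and 300 ng of starting RNA, and does not say whether the RNA of the 3 was pooled. With 1 group there was no comparison of conditions, so levels within the tissue and differences between the replicate libraries are described.

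Each alpha or gamma gene has its own large variable exon, which encodes the extracellular and transmembrane parts and has its own promoter. That exon is spliced to constant exons that all genes of the family share and that encode a common cytoplasmic tail, whereas beta genes have no constant exons. Individual neurons use different combinations of the alternate alpha, beta and gamma genes, chosen through promoters bound by CTCF and cohesin, while the C-type genes at the ends of the alpha and gamma arrays are expressed more uniformly. The proteins recognise matching proteins on other cells and take part in dendrite self-avoidance, axon tiling and the survival of interneurons.

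The members spanned 911.7 kb of the plus strand of chromosome 18, from 36930184 to 37841873 in mm10. Exons shared by all 14 alpha genes were found at 37156155 to 37156213, 37159265 to 37159353 and 37184946 to 37187657, with lengths of 59, 89 and 2712 bases. Exons shared by all 21 gamma genes were found at 37825021 to 37825079, 37833265 to 37833353 and 37839903 to 37841873, with lengths of 59, 89 and 1971 bases. The first and second constant exons thus had the same lengths in both families. The largest variable part of a member's transcripts was 2346 to 3028 bases in the alpha genes and 2542 to 2961 bases in the gamma genes. In the beta genes the longest transcript was 2588 to 8695 bases.

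The gene tables held 31755578 expected counts, estimated reads per gene, in replicate 2 and 29144892 in replicate 1. The members held 39964 of these in replicate 2, or 0.126% with an exact Clopper-Pearson 95% interval of 0.125 to 0.127%. They held 32167 in replicate 1, or 0.110% with an interval of 0.109 to 0.112%. A count of 0 allows up to 3 counts, which is 0.0945 CPM (counts scaled to the library) in replicate 2 and 0.103 CPM in replicate 1. These limits and intervals describe the counting error alone, as several reads can stem from the same molecule. The tissue check found the excitatory neuron gene Slc17a7, which encodes a vesicular glutamate transporter, at 687 TPM (a level scaled to the library and adjusted for transcript length) in replicate 2 and 663 TPM in replicate 1. In bulk tissue, fewer cells of a type and less RNA per cell cannot be told apart, and the choices of individual neurons are summed.

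Nearly the whole cluster was transcribed. In each library, 1 TPM or more was reached by 56 of 57 members, against 58.7% of all protein-coding genes. All 14 alpha genes, 21 of 22 beta genes and all 21 gamma genes passed. Most levels were low. The median member had 4.47 TPM in replicate 2 and 3.61 TPM in replicate 1, whereas protein-coding genes that passed the same threshold had medians of 15.5 and 15.0 TPM in the same libraries. At a threshold of 5 TPM, 13 members passed. The gene that stayed under 1 TPM was Pcdhb1, with 2 counts and 0.04 TPM in replicate 2 and 12 counts and 0.24 TPM in replicate 1.

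**Figure D1:**
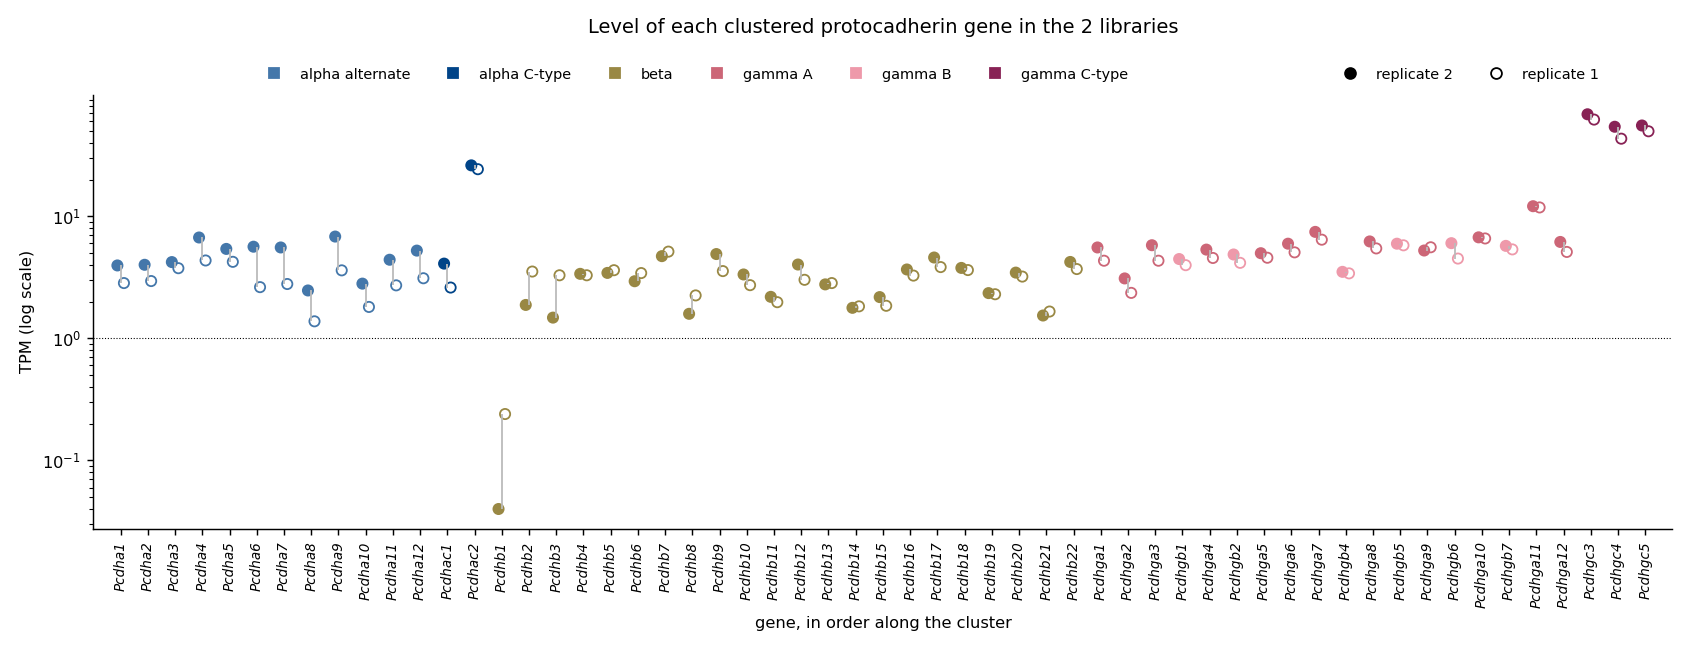
TPM (log axis) of each of the 57 members in replicate 2 (filled) and replicate 1 (open), in order along the cluster and coloured by sub-family; the dotted line is 1 TPM. The gamma C-type genes stand at 43.3 to 68.6 TPM, Pcdhac2 at 24.3 to 26.2 TPM, Pcdhga11 at 11.8 to 12.1 TPM, and the other members lie lower, with Pcdhb1 under 1 TPM.

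The gamma family made up most of the cluster's RNA. Gamma genes summed to 284 TPM in replicate 2 and 249 TPM in replicate 1, alpha genes to 87.5 and 63.1 TPM in the same order of libraries, and beta genes to 64.3 and 64.2 TPM. As shares of the TPM of all members, gamma genes held 65.6 ± 0.70%, alpha genes 18.4 ± 2.34% and beta genes 15.9 ± 1.64% (SD, n = 2). The gamma total was 3.57-fold the alpha total (log2 ratio 1.84 ± 0.20) and 4.13-fold the beta total (log2 ratio 2.05 ± 0.13; SD, n = 2 each). A ratio between levels was called where its sign was shared by the libraries and the mean on the log2 scale was over 0.5 and over 2 SD, and both of these ratios passed. The beta total was not separated from the alpha total, with a log2 ratio of -0.45 in replicate 2 and 0.02 in replicate 1. The smallest two-sided p of an exact sign-flip test with 2 libraries is 0.5, and such ratios are given untested.

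Of the C-type genes, 4 of 5 had the highest levels of the cluster in the gene table, which has the column layout of RSEM. A second deposited set, per transcript and in the layout of kallisto, had Pcdhgc4 below Pcdhac2. In that set the mean of Pcdhgc4, 18.35 TPM, lay close to those of the alternates Pcdha11 (18.78 TPM) and Pcdhga11 (17.24 TPM). Pcdhgc3 had 68.6 TPM in replicate 2 and 62.1 TPM in replicate 1, Pcdhgc5 had 55.5 and 49.8 TPM in the same order, and Pcdhgc4 had 54.2 and 43.3 TPM. Pcdhac2, whose protein is known from axon tiling of serotonergic neurons, had 26.2 TPM in replicate 2 and 24.3 TPM in replicate 1. Among all protein-coding genes, mean levels put Pcdhgc3 at the 93.2 percentile, Pcdhgc5 at 91.1, Pcdhgc4 at 90.1 and Pcdhac2 at 80.1. The remaining C-type gene, Pcdhac1, lay among the alternates, with 4.10 TPM in replicate 2 and 2.61 TPM in replicate 1 and a percentile of 49.4.

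Set against the median alternate gene of its own family, Pcdhgc3 was 12.4-fold higher (log2 ratio 3.63 ± 0.08), Pcdhgc5 9.95-fold (3.31 ± 0.07), Pcdhgc4 9.17-fold (3.20 ± 0.05) and Pcdhac2 6.74-fold (2.75 ± 0.45; SD, n = 2 each), and all of these ratios passed the rule. The median alternate had 5.76 TPM in replicate 2 and 4.83 TPM in replicate 1 over the 18 Pcdhga and Pcdhgb genes, and 4.83 and 2.90 TPM over the 12 alternate alpha genes. Pcdhac1 did not pass, with a log2 ratio of -0.19 ± 0.06. The C-type genes together held 62.6 ± 0.33% of the gamma TPM and 38.6 ± 5.73% of the alpha TPM. In the alpha family that share was 34.6% in replicate 2 and 42.7% in replicate 1. Between the C-type genes, Pcdhgc3 was 2.59-fold Pcdhac2 and Pcdhgc5 2.08-fold Pcdhac2, and both ratios passed. Neither Pcdhgc3 over Pcdhgc5 (1.24-fold) nor Pcdhgc5 over Pcdhgc4 (1.09-fold) passed in the RSEM-layout gene table. Pcdhgc5 over Pcdhgc4 was 4.45-fold in the kallisto-layout table (log2 ratio 2.15 ± 0.31) and 4.93-fold when only transcripts with a long variable exon and all constant exons, called full transcripts here, were counted (2.30 ± 0.22; SD, n = 2 each), and passed in both. Pcdhgc3 over Pcdhgc5 was 1.57-fold by full transcripts and passed there, but not in the kallisto-layout table (1.18-fold).

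The level of Pcdhgc4, a C-type gene known in mice for its part in the survival of cortical interneurons, rested largely on a single annotated transcript. In the RSEM-layout table, Pcdhgc4-203 held 41.6 TPM in replicate 2 and 33.6 TPM in replicate 1, which is 76.8% and 77.7% of the gene. This transcript is 2272 bases long, with 153 bases of variable sequence followed by all the gamma constant exons. The full transcript Pcdhgc4-201, with 2905 variable bases, had 9.58 TPM in replicate 2 and 7.08 TPM in replicate 1. The full transcript of the alternate Pcdhga11 was higher, at 12.1 TPM in replicate 2 and 11.8 TPM in replicate 1. With only transcripts that join at least 1000 variable bases to all the constant exons counted in every gene, an alternative added after seeing the data, Pcdhgc4 was 1.65-fold the median gamma alternate (log2 ratio 0.73 ± 0.12; SD, n = 2).

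The kallisto-layout table gave other transcript levels. It had Pcdhgc4-203 at 0.88 TPM in replicate 2 and 0.56 TPM in replicate 1, and Pcdhgc4-201 at 18.1 and 13.6 TPM. The direction against Pcdhac2 turned. The log2 ratio of Pcdhgc4 to Pcdhac2 was 0.94 ± 0.16 in the RSEM-layout gene table, but -1.05 ± 0.19 in the kallisto-layout table and -1.61 ± 0.23 by full transcripts (SD, n = 2 each). The log2 ratio of Pcdhgc4 to the median gamma alternate was 1.21 in the kallisto-layout table, and its kallisto-layout to RSEM-layout count ratio of 0.473 was the only member ratio past 2-fold in either direction. In the same table the transcript Gm38182-205, of a noncoding entry that overlaps the gamma constant exons, had 451 counts in replicate 2 and 340 in replicate 1, against 0 in either library of the RSEM-layout table. Such a count ratio past 2-fold occurred in 1.36% of genes in replicate 2 and 1.33% in replicate 1, over 12898 genes with a protein-coding transcript and at least 1 TPM. Over those genes the kallisto-layout TPM was a median 1.56 times the RSEM-layout TPM in replicate 2 and 1.59 times in replicate 1, so levels are compared within a table.

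**Figure D2:**
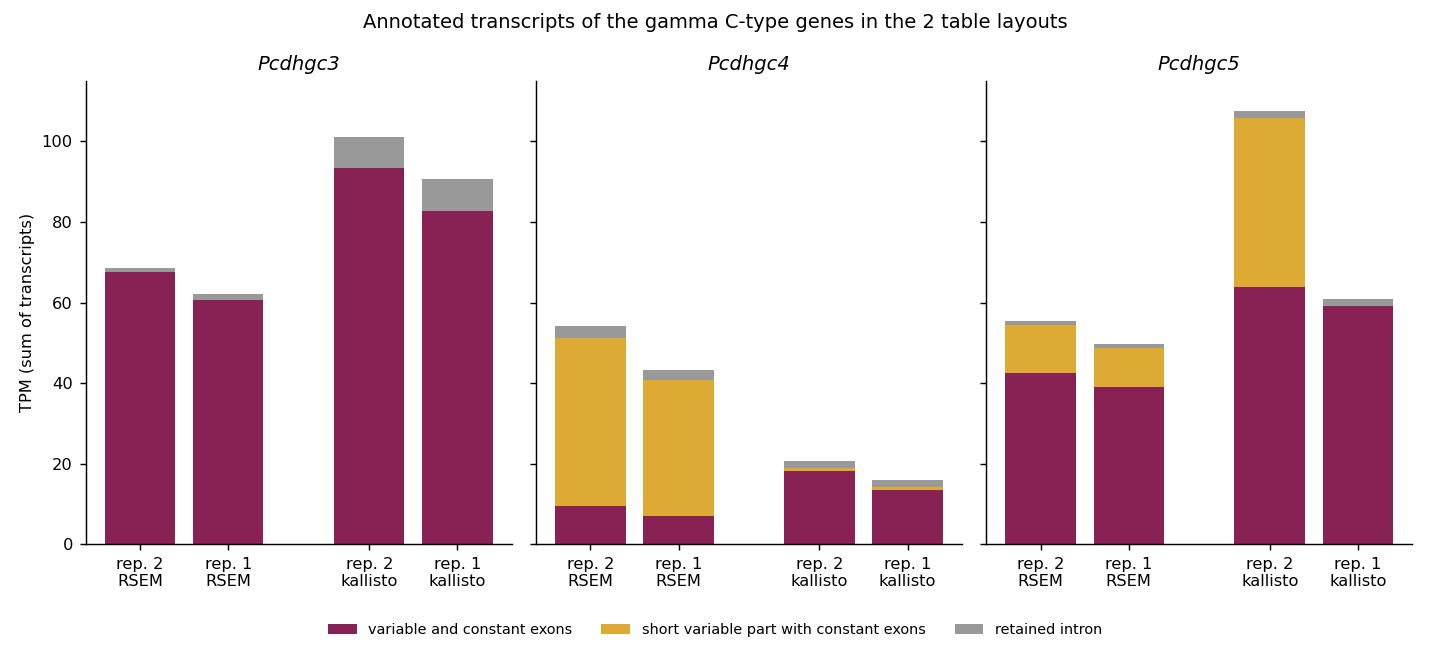
Summed TPM of the annotated transcripts of Pcdhgc3, Pcdhgc4 and Pcdhgc5 in each library and table layout, stacked by class: a long variable exon with the constant exons, a short variable part with the constant exons, and retained introns. Pcdhgc3 is almost all of the first class, while the short class is 77.2% of Pcdhgc4 in the RSEM layout and 3.87% of it in the kallisto layout.

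Pcdhgc3 and Pcdhgc5 were less dependent on the table. Pcdhgc3-201, the full transcript, held 98.7% of Pcdhgc3 in replicate 2 and 97.5% in replicate 1, at 67.7 and 60.6 TPM. Pcdhgc5-201 held 76.5% of Pcdhgc5 in replicate 2 and 78.3% in replicate 1, at 42.5 and 39.0 TPM. A short Pcdhgc5 transcript of 593 bases had 10.1 TPM in replicate 2 and 8.86 TPM in replicate 1 in the RSEM layout. In the kallisto layout it had 41.9 TPM in replicate 2, from 173 counts, and under 1 count in replicate 1. Pcdhac1 and Pcdhac2 each have 1 annotated transcript, and no such division applied to them.

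Most RNA assigned to the alpha and gamma genes was in transcripts that contain every constant exon of the family, the last of which can be cut short or spliced once more. Such transcripts, short variable parts included, held 95.3% of the alpha TPM in replicate 2 and 94.9% in replicate 1. They held 96.0% of the gamma TPM in replicate 2 and 94.2% in replicate 1. Retained-intron transcripts held 4.91 ± 0.25% of the alpha and 3.18 ± 0.79% of the gamma TPM, and gamma transcripts with no constant exon held 1.72 ± 0.45% (SD, n = 2). Of the 5 transcripts of the last class, Pcdhgb1-202 held 33.2% of its gene in replicate 2 and 25.7% in replicate 1, and Pcdhgb4-201 held 21.2% and 36.3%. Pcdha11 was the alpha gene with the least in full transcripts, at 0.63 of 4.41 TPM in replicate 2 and 0.07 of 2.72 TPM in replicate 1. A read within a constant exon matches every gene of its family, so these shares also depend on how the quantifier divided such reads.

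In the RSEM-layout gene table the alternate alpha genes lay within a narrow range. The 3 with the highest mean level were Pcdha4, Pcdha9 and Pcdha5. Pcdha4 had 6.71 TPM in replicate 2 and 4.35 TPM in replicate 1, Pcdha9 had 6.83 and 3.61 TPM, and Pcdha5 had 5.41 and 4.24 TPM. The lowest were Pcdha8, with 2.47 TPM in replicate 2 and 1.38 TPM in replicate 1, and Pcdha10, with 2.81 and 1.81 TPM. The highest mean level was 2.87-fold the lowest over these 12 genes. This range holds with all transcripts of a gene counted. By full transcripts alone, Pcdha11 had a mean of 0.35 TPM and Pcdha9 one of 5.22 TPM. In the kallisto-layout table Pcdha11 was the highest, with 27.5 TPM in replicate 2 and 10.1 TPM in replicate 1, of which 22.4 and 6.52 TPM were in a short transcript of 625 bases, and the highest mean was 7.37-fold the lowest. Leaving out Pcdha11, chosen after its values were seen, the ratio in that table was 2.75-fold. In the RSEM-layout gene table, the number of equally expressed genes that would give the same evenness (the inverse of the summed squared shares) was 11.2 in replicate 2 and 11.1 in replicate 1, of 12 possible.

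The beta genes, each transcribed from its own exon with no shared tail, had low levels. Their median was 3.14 TPM in replicate 2 and 3.24 TPM in replicate 1. Pcdhb7 had the highest mean level with 4.72 TPM in replicate 2 and 5.14 TPM in replicate 1, followed by Pcdhb9 with 4.91 and 3.56 TPM and Pcdhb17 with 4.6 and 3.84 TPM. The lowest after Pcdhb1 was Pcdhb21, with 1.54 TPM in replicate 2 and 1.66 TPM in replicate 1. Leaving out Pcdhb1, the highest mean level was 3.08-fold the lowest. The inverse of the summed squared shares was 18.7 in replicate 2 and 19.7 in replicate 1, of 22 possible. The 14 beta genes not named in the text ranged from 1.59 to 4.23 TPM in replicate 2 and from 1.83 to 3.70 TPM in replicate 1.

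In the gamma family, Pcdhga11 stood above the other alternates, with 12.1 TPM in replicate 2 and 11.8 TPM in replicate 1, and its ratio to the next gene passed the rule. That next gene was Pcdhga7, with 7.46 TPM in replicate 2 and 6.44 TPM in replicate 1, followed by Pcdhga10 with 6.73 and 6.59 TPM. The lowest Pcdhga genes were Pcdhga2, with 3.10 TPM in replicate 2 and 2.36 TPM in replicate 1, and Pcdhga5, with 4.99 and 4.58 TPM. Pcdhga4, Pcdhga6, Pcdhga8 and Pcdhga9 ranged from 5.25 to 6.23 TPM in replicate 2 and from 4.56 to 5.58 TPM in replicate 1.

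The 6 Pcdhgb genes lay within 1.70-fold of each other by mean level. Pcdhgb5 had 5.97 TPM in replicate 2 and 5.79 TPM in replicate 1, Pcdhgb7 had 5.73 and 5.36 TPM, and Pcdhgb6 had 6.03 and 4.51 TPM. Pcdhgb4 was the lowest with 3.51 TPM in replicate 2 and 3.41 TPM in replicate 1, and Pcdhgb1 came next with 4.47 and 3.98 TPM. The median Pcdhga gene was 1.14-fold the median Pcdhgb gene, which did not pass the rule. The median Pcdhga gene was 1.72-fold the median beta gene (log2 ratio 0.78 ± 0.18) and the median Pcdhgb gene 1.5-fold (0.59 ± 0.24; SD, n = 2 each), and both passed. The log2 ratio of the median alternate alpha gene to the median beta gene was 0.62 in replicate 2 and -0.16 in replicate 1, and did not pass.

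Gamma genes nearer the C-type end of the array had higher levels. Spearman's rho between position along the chromosome and mean TPM was 0.80 over the 21 gamma genes, which include the C-type genes at the end. It was 0.695 over the 18 Pcdhga and Pcdhgb genes, 0.78 over the 12 Pcdhga genes and 0.657 over the 6 Pcdhgb genes. It was 0.09 over the 14 alpha genes and 0.12 over the 22 beta genes. These are descriptions across genes of the same 2 libraries, and neighbouring genes share sequence. Ordered by mean TPM, 4 of the 56 neighbouring pairs of members differed by the rule. They were Pcdhgc4 above Pcdhac2, which turns round in the kallisto-layout table and by full transcripts, Pcdhac2 above Pcdhga11, Pcdhga11 above Pcdhga7, and Pcdhb21 above Pcdhb1. The members between Pcdhga7 and Pcdhb21 formed a series of levels in which no gene was separated from the next. Sorting by level puts like genes side by side, so this does not show that genes further apart in the series had equal levels.

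Of the sub-families, the alternate alpha genes differed by the largest log2 ratio between the libraries. Their summed level was 57.3 TPM in replicate 2 and 36.2 TPM in replicate 1, a log2 ratio of summed counts of 0.63. The summed log2 ratio was 0.12 for the alpha C-type genes, -0.03 for the beta genes and 0.14 for the gamma genes. All 12 alternates had a log2 ratio above 0, with a median of 0.66, against 50.5% of all genes tested. Reads in their shared constant exons are divided among them, so the 12 genes are not independent. Expected counts were compared by an exact two-sided binomial test on these libraries, with library sizes scaled by TMM and Benjamini-Hochberg adjustment over all 18332 genes whose mean count was 10 or more. The test compares the libraries beyond counting noise, not conditions, and an adjusted p under 0.05 was called.

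Of 56 members tested, 25 passed the exact binomial test, 23 of them higher and 2 lower in replicate 2. Over all genes tested, 22.7% passed, 12.5% higher and 10.2% lower, and the median log2 ratio of all genes was 0.00. Among the 7164 genes with a mean count of 100 to 1000, the range of most members, 18.6% passed and 3.67% passed with a difference of at least 1.5-fold. Of the members, 10 passed with a difference of at least 1.5-fold. By family, 12 of 14 alpha genes were higher and none lower, 2 of 21 beta genes were higher and 2 lower, and 9 of 21 gamma genes were higher and none lower. When edgeR's exact test was run with an assumed coefficient of variation of 0.1 between replicates, 5 members and 0.944% of all genes passed. Scaling to the spike-in total in place of TMM shifted the median over all genes to 0.11 on the log2 scale, and the split of all calls became 5516 higher and 1000 lower, against 2288 and 1879 with TMM.

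**Figure D3:**
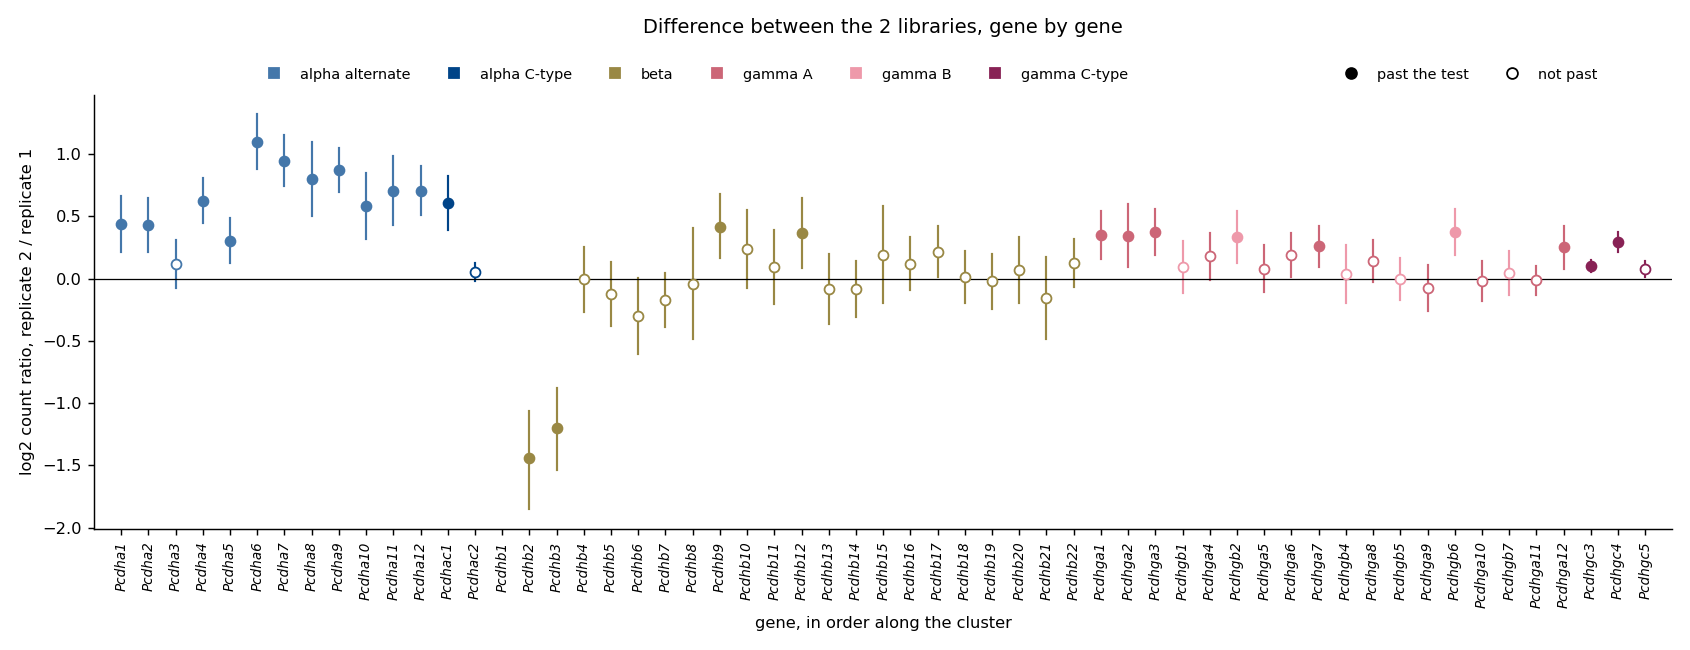
Log2 ratio of TMM-scaled counts, replicate 2 over replicate 1, for the 56 members tested, in order along the cluster, with exact 95% binomial intervals; filled points passed the exact binomial test with Benjamini-Hochberg adjustment. The alternate alpha genes lie between 0.12 and 1.09, Pcdhb2 and Pcdhb3 lie at -1.44 and -1.20, and Pcdhac2 and most beta genes lie near 0.

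Pcdha6 had 567 counts in replicate 2 and 241 in replicate 1 (log2 ratio 1.09, 95% interval 0.88 to 1.32, exact binomial adjusted p 9.5e-23). Pcdha7 had 626 counts in replicate 2 and 295 in replicate 1 (0.94, 0.74 to 1.15, exact binomial adjusted p 7.3e-20). Pcdha9 had 769 counts in replicate 2 and 382 in replicate 1 (0.87, 0.69 to 1.05, exact binomial adjusted p 3.5e-21). These were the alpha genes that also passed edgeR's exact test at the assumed variation, with adjusted p of 0.00073, 0.0065 and 0.016. Pcdha8 had a log2 ratio of 0.80, Pcdha11 of 0.70, Pcdha12 of 0.70, Pcdha4 of 0.63 and Pcdha10 of 0.58. Pcdha1, Pcdha2 and Pcdha5, at 0.43, 0.43 and 0.30, also passed the exact binomial test, with adjusted p-values of 0.00092, 0.00073 and 0.006. Pcdha3 was the alternate alpha gene that did not pass, with 474 counts in replicate 2 and 397 in replicate 1 (log2 ratio 0.12, interval -0.08 to 0.31).

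The alpha C-type genes had unlike log2 ratios between the libraries. Pcdhac1 had 469 counts in replicate 2 and 280.2 in replicate 1 (log2 ratio 0.60, 95% interval 0.39 to 0.82, exact binomial adjusted p 4.1e-07), a ratio within the range of the alternates. Pcdhac2 had 3255 counts in replicate 2 and 2844 in replicate 1, a log2 ratio of 0.06 with an interval of -0.02 to 0.13, and did not pass. The interval of Pcdhac2 did not overlap that of Pcdhac1, but both intervals cover counting noise only.

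The beta genes that were lower in replicate 2 were neighbours at the start of the beta array. Pcdhb2 had 77.4 counts in replicate 2 and 191 in replicate 1 (log2 ratio -1.44, 95% interval -1.85 to -1.06, exact binomial adjusted p 2.9e-13). Pcdhb3 had 117 counts in replicate 2 and 245 in replicate 1 (-1.20, interval -1.53 to -0.88, exact binomial adjusted p 6.9e-13). Both also passed edgeR's exact test at the assumed variation, with adjusted p of 8.2e-05 and 0.0011. Pcdhb1, the gene just before them, had 2 counts in replicate 2 and 12 in replicate 1, under the count cutoff of the main test. With the cutoff lowered to a mean count of 1, 57 members were tested, Pcdhb1 being the member added. At that cutoff 3 members were lower in replicate 2, against 2 in the main test. Pcdhb9 and Pcdhb12 were higher, with log2 ratios of 0.42 and 0.36 and exact binomial adjusted p of 0.008 and 0.043. The other 17 beta genes tested had log2 ratios of -0.30 to 0.23.

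Among the gamma genes the differences were smaller. Pcdhgc4 had 3152 counts in replicate 2 and 2335 in replicate 1 (log2 ratio 0.29, 95% interval 0.22 to 0.37, exact binomial adjusted p 2.8e-12). Pcdhgc3 had 6739.8 counts in replicate 2 and 5707 in replicate 1, a log2 ratio of 0.10 with an exact binomial adjusted p of 0.00091. Pcdhgc5 had 4487 counts in replicate 2 and 3864 in replicate 1 and did not pass (log2 ratio 0.08). The alternates that passed were Pcdhga3 at 0.37, Pcdhgb6 at 0.37, Pcdhga1 at 0.35, Pcdhga2 at 0.34, Pcdhgb2 at 0.33, Pcdhga7 at 0.26 and Pcdhga12 at 0.25. Pcdhga11, the highest of the alternates, had 1212 counts in replicate 2 and 1112 in replicate 1, a log2 ratio of -0.01. The remaining gamma alternates lay between -0.08 and 0.19.

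Markers of other cells also differed between the libraries. Genes are counted here as higher or lower only where they passed the exact binomial test. Over all genes tested, 12.5% passed as higher and 10.2% as lower in replicate 2. All 6 myelinating oligodendrocyte genes were lower in replicate 2, where they summed to 771 TPM, against 1490 TPM in replicate 1. All 4 thalamic neuron genes were lower, at a sum of 27.7 TPM in replicate 2 and 49.1 TPM in replicate 1, and 3 of 4 tested choroid plexus genes were lower, at sums of 47.0 and 89.0 TPM. Of the 4 general neuron genes 2 were higher and 2 lower, at sums of 1378 TPM in replicate 2 and 1361 TPM in replicate 1. Of the 3 excitatory neuron genes 1 was higher, at sums of 2091 and 2012 TPM, and of the 3 interneuron genes 1 was higher, at sums of 193 and 169 TPM. Of the 4 astrocyte genes 2 were higher (470 and 415 TPM), as were all 3 microglial genes (95.1 and 78.5 TPM) and 2 of 3 endothelial genes (60.1 and 47.9 TPM). The serotonergic genes summed to 0.50 TPM in replicate 2 and 0.41 TPM in replicate 1, with Fev at 0 in both. The part of these differences in the protocadherin differences was not tested.

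Read assignment was more certain for the beta genes than for the alternate alpha and gamma genes. The deposited posterior standard deviation of the count was a median 0.62% of the count in replicate 2 and 0.53% in replicate 1 over the beta genes, and at most 1.18%. Over the alternate alpha genes the medians were 4.54% in replicate 2 and 6.25% in replicate 1. Over the Pcdhga and Pcdhgb genes they were 3.49% and 4.0%. Among the C-type genes it was 0.96 to 4.32% in replicate 2 and 1.10 to 5.56% in replicate 1. As a rounded percent it exceeded 5% in 7 members in replicate 2 and 16 in replicate 1, none of them beta genes. This compares with 4.10% and 4.44% of the 7164 genes with a mean count of 100 to 1000. Pcdha12, at 5.0% in replicate 1, is over the limit only before rounding, and the filter below left it out. With genes over 5% in either library left out, an alternative added after seeing the data, 39 members were tested and 11 passed the exact binomial test. Over all genes left by the same filter, 3875 of 17185, or 22.5%, passed. That filter removed 10 of the 12 alternate alpha genes, and of the 2 left Pcdha5 passed and Pcdha3 did not.

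**Figure D4:**
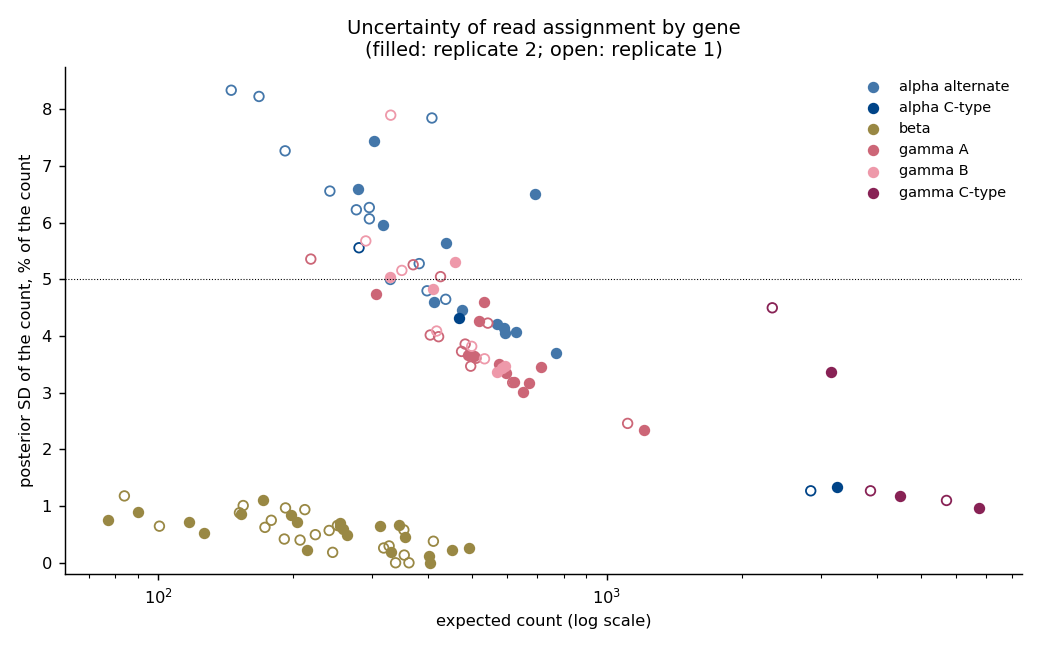
Posterior standard deviation of the count, as a percent of the count, against the expected count (log axis) for 56 members in replicate 2 (filled) and replicate 1 (open), coloured by sub-family; Pcdhb1 is left out for its low count and the dotted line is 5%. Beta genes lie at or under 1.18% at any count, while alternate alpha and gamma genes lie between 2.35% and 8.34%.

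The other protocadherin genes, which lie outside the cluster and have no shared constant exons, had a higher median level. Of 12 such genes 11 were detected, with a median of 30.8 TPM in replicate 2 and 26.8 TPM in replicate 1. The ranges overlapped. Pcdh12 and Pcdh18 lay under the median member in both libraries and the others above it, while Pcdhgc3 lay below only Pcdh1 and Pcdh9. Pcdh1 had 157 TPM in replicate 2 and 144 TPM in replicate 1, Pcdh9 had 70.1 and 79.4 TPM, and Pcdh10 had 52.0 and 46.6 TPM. Pcdh12, a gene of endothelial cells, had 1.07 TPM in replicate 2 and 0.55 TPM in replicate 1 (log2 ratio 0.62, exact binomial adjusted p 0.035). Of the 12 tested, 5 were higher and 2 lower in replicate 2 by the exact binomial test, and the median log2 ratio was 0.08. That test passed 22.7% of all genes, and at high counts it passes small shifts, such as Pcdh1 at a log2 ratio of 0.09. The same holds for the counts in the lists below.

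Genes for promoter choice and silencing in the cluster were nearly all detected. All 11 genes of CTCF and cohesin, which loop promoters to enhancers, were detected, with a median of 22.7 TPM in replicate 2 and 22.9 TPM in replicate 1. Mau2, which loads cohesin, had 35.3 TPM in replicate 2 and 35.7 TPM in replicate 1, and Pds5a, a cohesin regulator, had 33.9 and 33.8 TPM. Rad21, a cohesin subunit, had 29.8 and 26.8 TPM, and Pds5b had 28.9 and 27.6 TPM. Of these 11 genes, Rad21 and Pds5b were higher and Mau2 lower in replicate 2 by the exact binomial test, with a median log2 ratio of 0.01 over the list. Of 11 genes of DNA methylation and silencing, 10 were detected, with a median of 20.2 TPM in replicate 2 and 20.6 TPM in replicate 1. Dnmt3a, a DNA methyltransferase, had 123 TPM in replicate 2 and 114 TPM in replicate 1, Atf7ip had 52.7 and 45.3 TPM, and Tet3, which oxidises methylcytosine, had 50.7 and 42.6 TPM. Dnmt3b, the methyltransferase known to methylate these promoters in the early embryo, had 0.67 TPM in replicate 2 and 0.89 TPM in replicate 1. In that list 4 genes were higher and 1 lower in replicate 2, and the median log2 ratio was 0.08.

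Genes for partners of the protocadherin proteins had higher median levels than the members. All 15 genes for cytoplasmic partners were detected, with a median of 113 TPM in replicate 2 and 109 TPM in replicate 1. The highest were Nckap1, a subunit of the WAVE complex that builds actin networks, with 209 TPM in replicate 2 and 202 TPM in replicate 1, and the GTPases Rac1, with 208 and 180.3 TPM, and Cdc42, with 181 and 168 TPM. In that list 6 genes were higher and 2 lower in replicate 2 by the exact binomial test, which 22.7% of all genes passed. The median log2 ratio was 0.06. All 8 genes for cleavage enzymes and surface partners were detected, with a median of 33.0 TPM in replicate 2 and 30.9 TPM in replicate 1. Nlgn2, a postsynaptic adhesion protein of inhibitory synapses, had 109 TPM in replicate 2 and 94.7 TPM in replicate 1, Nlgn1 had 48.8 and 49.3 TPM, and Aph1a, a gamma-secretase subunit, had 39.8 and 31.9 TPM. In that list 2 genes were higher and none lower, with a median log2 ratio of 0.05.

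**Figure D5:**
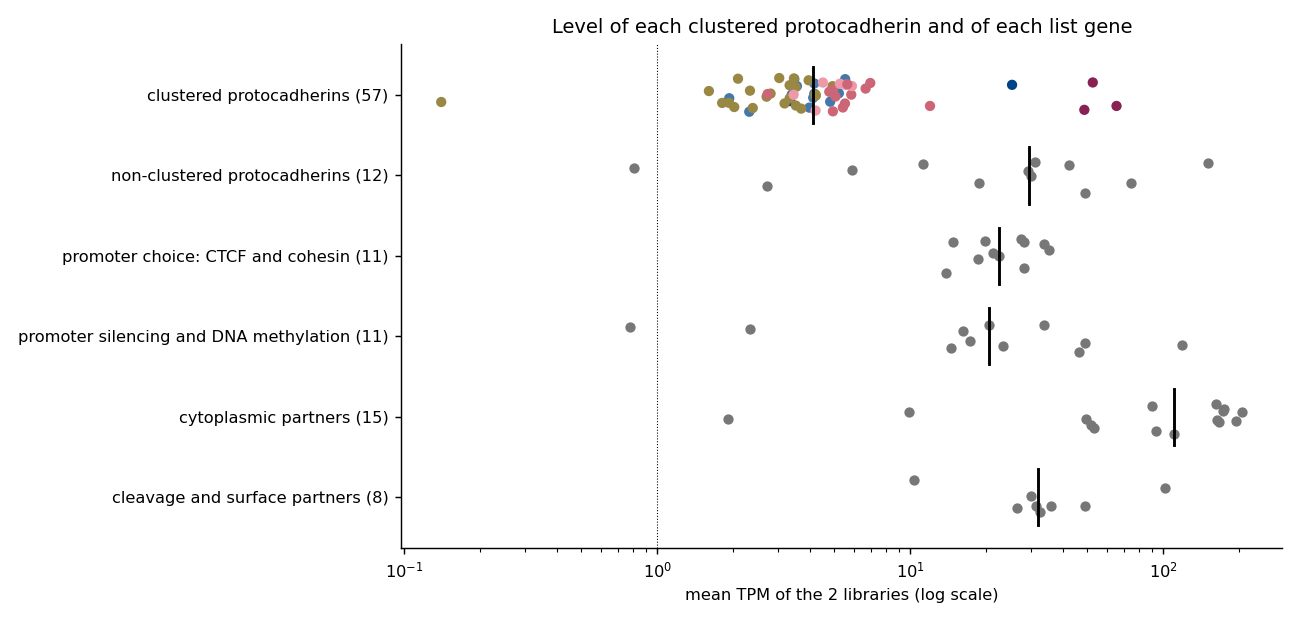
Mean TPM of the 2 libraries (log axis) for each clustered protocadherin, coloured by sub-family as in the plot of levels by gene order, and for each gene of the 5 related lists in grey; black bars are medians and the dotted line is 1 TPM. Most clustered members lie below most genes of the other lists, and the gamma C-type genes, at means of 48.8 to 65.3 TPM, lie among them.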

How the data were processed

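Total RNA-seq tables of 2 libraries were analysed. Expected counts (estimated reads per gene or transcript, not normalised), TPM, the posterior standard deviation of the count and each transcript's percent of the TPM of its gene were deposited by the authors in an RSEM-layout set, per the file headers. A kallisto-layout set, as deposited, gives estimated counts and TPM per transcript. Notes that accompany the tables name the build mm10 and the annotation GENCODE M21. Aligner, quantifier settings and any use of strand in counting are not stated there or in the labels. Members, lists, tests and alternatives were chosen with earlier results of these data known.

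The 97 spike-ins and 26248 numbered entries that name no gene, which held 9.45e-06% of the counts in replicate 2 and 2.68e-05% in replicate 1, were left out of totals. Expected counts were rounded for the exact binomial test (Python 3.11.15, scipy 1.17.1), with TMM factors from edgeR 4.0.16 and a prior count of 0.5 in log2 ratios. DESeq2 1.42.0 size factors were an alternative. Log2 ratios of TPM used a pseudocount of 0.01. On counts simulated for this comparison over 18332 genes, 74 of 79 genes changed by 2-fold and 61 of 75 changed by 1.5-fold were recovered. Each changed gene had a mean count of at least 50. Of 18132 unchanged genes, 5 were called. In the data 22.7% of genes passed between these replicates, so the simulated count gives no error rate for the calls here. Named were all C-type members, the 3 highest and 2 lowest of each group of alternates, members past the test, members past a 2-fold difference between table layouts, and in each list the 3 highest genes, those under a mean of 1 TPM and those past the test at 1.5-fold or more. The labels call the libraries biological replicates, but with 1 library on each side the binomial p-values cover counting noise only. No sequence is printed.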

Additional observations from a re-analysis of the deposited data

Results flagged for a closer look

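Within the span of the cluster, 28 annotated entries are not members, and 14 of them had over 3 counts in both libraries. The 12 of these that do not code for protein carried signal outside the comparisons above, over the 3 counts that a count of 0 allows. There are no control samples to set them against. Pcdhgb8, typed as a polymorphic pseudogene, had 389.75 expected counts in replicate 2 and 311.47 in replicate 1, or 4.02 and 3.42 TPM, within the range of the Pcdhgb members. The pseudogene Gm36858 had 92.65 counts in replicate 2 and 59.33 in replicate 1. Gm38182, which overlaps the gamma constant exons, had 34.61 counts in replicate 2 and 15.82 in replicate 1, and 482 and 395 in the kallisto layout.

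The other pseudogenes had fewer counts. Gm19035 had 27 counts in replicate 2 and 24 in replicate 1, Gm18150 had 13 and 9, Gm20162 had 13 and 14, and Gm18529 had 6 and 10. The lincRNA 3222401L13Rik had 20 counts in replicate 2 and 29 in replicate 1. On the opposite strand, Gm26672 had 43 counts in replicate 2 and 29 in replicate 1, BC037039 had 38 and 37, Gm10545 had 20.45 and 13.99, and Gm10544 had 4 and 9. Noncoding entries on that strand summed to 112 counts in replicate 2 and 97 in replicate 1. Reads of a gene and its antisense partner cannot be told apart if counting ignored strand. None of these entries passed the exact binomial test where its counts allowed one.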

How the results depend on the processing

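Of 84 values recomputed under alternatives, 9 moved and 75 kept their side of the call rule or lay within the spread. Leaving out 1 of 2 libraries cannot take a total or share past the spread, so those values were no test. It also cannot lower the number of members detected, as the rule needs both libraries. Keeping only alternates with a mean of at least 1 TPM removed no gene, so the values under that setting could not change. A kept side can hide a large shift. The log2 ratio of Pcdhgc4 to the median alternate was 3.20 as reported, 1.21 in the kallisto layout and 0.73 by full transcripts. The reversal of Pcdhgc4 against Pcdhac2 is not among the 84. Among these 75 the sign turned once, for the uncalled log2 ratio of beta to alpha totals, at 0.02 without replicate 2. In the kallisto layout the mean family totals were 118.6 TPM for alpha, 85.6 TPM for beta and 346 TPM for gamma genes, and the share of TPM in transcripts with the constant exons was 95.4% for alpha and 93.0% for gamma genes. The posterior mean TPM gave a beta total of 63.0 TPM. At 5 TPM, 13 members were detected. With edgeR's exact test and a set coefficient of variation of 0.1, 5 members and 173 of 18332 genes passed, against 25 members and 4167 genes. With genes of uncertain assignment left out, 11 of 39 members and 3875 of 17185 genes passed. Scaling to spike-ins gave 32 members and 6516 genes. The 25 called members kept their sign in every alternative they were tested in, but only 5 were called in each of those. Another 17 were missed by edgeR's exact test alone. Count cutoffs and that test reuse the same counts and cannot turn a sign. No paired analysis was possible because there is 1 group. Leaving out a library gave family totals of 63.1 to 87.5 TPM for alpha, 64.2 to 64.3 TPM for beta and 249 to 284 TPM for gamma genes. Depth limits Pcdhb1.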
